A study of Mus musculus with 5 samples.

Results

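Cadherins and protocadherins were followed across the cell classes of the mouse central amygdala (CeA) and between fed and fasted mice. The members were taken by name alone, as every gene whose symbol is Cdh followed by a number or starts with Pcdh, which gave 92 of the 22532 genes in the files. They comprise 5 type I cadherins, 13 type II cadherins, 5 other cadherins, 9 delta protocadherins, 3 other protocadherins, and 14 alpha, 22 beta and 21 gamma protocadherins of the clustered loci.

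Cadherins are membrane proteins whose extracellular repeats bind calcium and adhere to cadherins on the opposing cell, while the tail of classical cadherins binds catenins, which link adhesion to actin. Type II cadherins are known for combinatorial expression in neighbouring neuronal populations, and delta protocadherins contact the actin-regulating WAVE complex. The clustered protocadherins are made from tandem first exons that are chosen differently by single neurons and act in the recognition of self by neurites.

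Single nuclei of the CeA were sequenced in 3 libraries of fed mice and 2 libraries of mice fasted for 20 h (replicate 1) and 21 h (replicate 2), each of CeA tissue pooled from a male and a female animal, labelled C57BL6. The methods give C57BL/6NRj for wild-type mice and a backcross to C57BL/6N for transgenic ones. Fed replicate 3 came from Htr2a-Cre mice of 12 weeks, which expressed a Cre-dependent viral mCherry reporter, and the mice of the other 4 libraries were 8 weeks old and without a transgene. Each library is therefore a pool of 2 animals. In the fasting fit without a block, p-values measure the spread between these libraries, which includes animals, preparation and depth. Classes were compared within libraries, and there p-values measure how far class differences vary from library to library. After filtering, 1130 to 1734 nuclei remained per library, with a median of 6608 to 16367 unique molecular identifiers (UMIs) per nucleus and no more than 22 cell barcodes shared by any 2 libraries. The median share of mitochondrial UMIs was 0.0529 to 0.136% in the fed libraries and 0.237 and 0.317% in the fasted ones.

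Nuclei were assigned to classes by the raw UMIs of a few marker genes, none of them a member. The 8 inhibitory classes with at least 10 nuclei in every library could be compared, and highest and lowest refer to these 8 unless another class is named. They are named here by region and gate gene as CeC Calcrl, CeL Prkcd, CeL Dnah5, CeL Sst, CeM Dlk1, ITC Foxp2 (intercalated cells), AStr Rarb (amygdalostriatal area) and IPAC Pde1c (the interstitial nucleus beside the anterior commissure's posterior limb). Astrocytes, oligodendrocytes and oligodendrocyte precursor cells (OPC) were the 3 glial classes. Marker genes that the gates did not use gave 33 checks of a gene in a class, with Foxp1 and Phactr1 checked in both IPAC Pde1c and AStr Rarb. In 23 checks the class was the highest of 11 classes for that gene, and in 31 it was among the 3 highest. The exceptions were Drd2 in CeC Calcrl, at 30.3 counts per 1000000 (CPM), and Erbb4 in CeL Sst, each in rank 4. In CeC Calcrl Prkd1 was in rank 2 and Penk in rank 3. In CeM Dlk1, gated by at least 1 Dlk1 UMI, Hdac9 was in rank 2 and Astn2 and Npas3 in rank 3. In neither of these classes was a checked marker highest, so their gates are less well supported. Nuclei that met several gates of the CeC, CeL and CeM classes were left out. The other gates came first, in a fixed order. A nucleus that met one of those stayed in its class, even with RNA of a CeA marker, so mixed nuclei were not removed there. No doublet caller was run. Many inhibitory nuclei met no gate and were in no class. They numbered 470 of 918, 309 of 812 and 472 of 1269 in fed replicates 1 to 3. In fasted replicates 1 and 2 they were 763 of 1338 and 579 of 1435. No gate was set for Il1rapl2, a marker of the study's largest CeM cluster, so the 8 classes do not cover the whole CeA.

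A level is given as CPM, the UMIs of a gene per 1000000 UMIs of all genes, summed over the nuclei of a class in a library. It compares 1 gene between classes and not 1 gene with another, and fewer nuclei with a gene cannot be told apart from less of its RNA per nucleus. A class difference is the fitted log2 difference between a class and the mean of the other 7 inhibitory classes, with its standard error, from edgeR with the library as a block over 8757 genes. Glial classes were set against the mean of the 8 inhibitory classes. A difference was called at an adjusted p of 0.05. Members that passed the filter on low counts numbered 23, and a gene could pass through the single class in which it was high, so counts over these 23 describe them and do not speak for all 92.

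Of the type II members, 5 lie in a row on mouse chromosome 15. In the GENCODE vM39 annotation of GRCm39, Cdh6 spans chr15:13028787-13174004, Cdh9 chr15:16728507-16857226, Cdh10 chr15:18818713-19016388, Cdh12 chr15:20449351-21589622 and Cdh18 chr15:22549108-23474504. Cdh20, Cdh7 and Cdh19 lie on chromosome 1, at chr1:104696236-104923207, chr1:109910161-110068061 and chr1:110815039-110905349, Cdh8 and Cdh11 on chromosome 8 and Cdh22 on chromosome 2. The promoters of Cdh9 and Cdh12, highest in CeC Calcrl and CeM Dlk1 among the inhibitory classes, and of Cdh20, higher in astrocytes, oligodendrocytes and OPC, are shown from RefSeq on GRCm38.p6, each 300 bases on the plus strand around 1 annotated start of the gene, which need not be its outermost one. That build differs from GRCm39, so these positions cannot be set against the spans above. Capitals mark the CCAAT box, searched as CCAAT on both strands.

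Cdh9, chr15:16728665-16728964: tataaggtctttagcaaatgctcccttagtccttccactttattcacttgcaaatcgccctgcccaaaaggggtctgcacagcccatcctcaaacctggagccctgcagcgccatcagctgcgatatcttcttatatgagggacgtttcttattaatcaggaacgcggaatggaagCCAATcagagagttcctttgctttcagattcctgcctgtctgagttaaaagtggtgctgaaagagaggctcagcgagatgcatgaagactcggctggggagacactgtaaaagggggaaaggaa

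Cdh12, chr15:21111202-21111501: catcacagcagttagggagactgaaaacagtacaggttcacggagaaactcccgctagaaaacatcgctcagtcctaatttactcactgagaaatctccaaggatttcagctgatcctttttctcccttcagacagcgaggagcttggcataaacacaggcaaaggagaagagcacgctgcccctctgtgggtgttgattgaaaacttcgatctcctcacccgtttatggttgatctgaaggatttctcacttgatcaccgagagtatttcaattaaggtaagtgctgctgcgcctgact

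Cdh20, chr1:104768270-104768569: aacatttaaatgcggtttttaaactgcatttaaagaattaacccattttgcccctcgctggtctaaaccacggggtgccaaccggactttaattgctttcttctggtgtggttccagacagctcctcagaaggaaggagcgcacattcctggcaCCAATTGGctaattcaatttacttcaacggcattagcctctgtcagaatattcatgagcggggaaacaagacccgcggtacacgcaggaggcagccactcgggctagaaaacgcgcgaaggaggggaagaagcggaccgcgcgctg

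The Cdh9 window holds 1 match, the Cdh20 window 2 that overlap on opposite strands and the Cdh12 window 0, and 37.4% of the 32851 promoters in the same table hold at least 1. TATAAA, searched the same way, is in none of the 3 windows and in 13.6% of all promoters. The windows hold 8, 9 and 18 CG dinucleotides in the order shown, against a median of 7 over all promoters. These matches describe the letters of the windows only.

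The inhibitory classes differed in most of the cadherins that could be tested. Of the 23 tested members, 22 differed among the 8 classes (edgeR quasi-likelihood F test), where 46.4% of all genes did. Pcdhga12 was the 1 that was not called, with an adjusted p of 0.37. The ratio of the highest to the lowest class mean was 16.4 for Cdh9, 13.6 for Cdh13, 12.5 for Cdh6 and 11.3 for Cdh12, and 1.59 for Pcdh17.

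**Figure D1:**
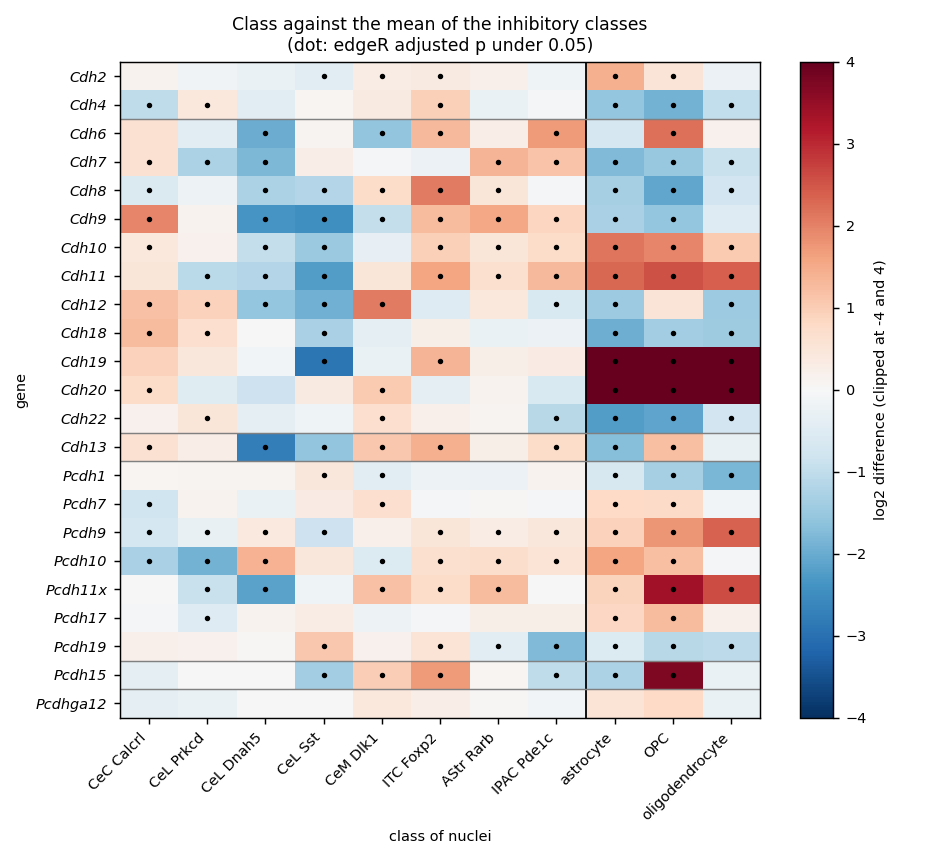
Fitted log2 difference of each tested member (rows) in each class (columns) from the mean of the inhibitory classes, with a dot where the edgeR adjusted p was under 0.05. ITC Foxp2 has 14 members called higher and 0 lower, CeL Sst has 2 higher and 11 lower, and Cdh19 and Cdh20 lie past the end of the colour scale in the 3 glial classes.

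ITC Foxp2 stood at one end and the CeL Dnah5 and CeL Sst classes at the other. In ITC Foxp2, 14 members were higher and 0 lower, where 12.6% of all genes were higher and 10% lower, 22.7% together. In CeL Dnah5, 2 were higher and 9 lower (10.1% and 8.96% of all genes, 19% together), and in CeL Sst 2 were higher and 11 lower (8.77% and 7.89%, 16.7% together). The median log2 difference of the 23 members was 0.55 in ITC Foxp2, -0.35 in CeL Dnah5 and -0.18 in CeL Sst, where that of all genes lay between -0.02 and 0.01. Among the 11 tested type II cadherins alone, 6 were higher in ITC Foxp2, while 7 were lower and 0 higher in both CeL Dnah5 and CeL Sst. These directions are not independent of each other, since each class is part of the mean the others are set against.

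The remaining classes were mixed. CeC Calcrl had 7 members higher and 5 lower (9.79% and 6.46% of all genes, 16.2% together), CeM Dlk1 9 higher and 4 lower (9.19% and 8.32%, 17.5% together), and IPAC Pde1c 8 higher and 4 lower (9.85% and 5.97%, 15.8% together). AStr Rarb had 8 higher and 1 lower (9.42% and 5.13%, 14.5% together), and CeL Prkcd 4 higher and 6 lower (13.9% and 13.2%, 27.1% together). In CeC Calcrl 6 of 11 tested type II members were called higher and 1 lower. Of 7 tested delta protocadherins 0 were called higher and 3 lower.

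Of the type I cadherins 2 could be tested. Cdh2, N-cadherin, the classical cadherin of synaptic junctions, ranged from 290 CPM in CeM Dlk1 to 175 CPM in CeL Sst as means of 5 libraries, a ratio of 1.66. Its difference was 0.30 ± 0.10 in CeM Dlk1 and -0.43 ± 0.12 in CeL Sst. Cdh4, R-cadherin, read 724, 554 and 617 CPM in ITC Foxp2 in fed replicates 1, 2 and 3 and 747 and 574 CPM in fasted replicates 1 and 2. In CeC Calcrl Cdh4 read 146, 234 and 274 CPM in the fed and 113 and 182 CPM in the fasted libraries. The 5 ITC values lay above all 5 CeC values, and the differences were 0.94 ± 0.15 and -1.03 ± 0.18. Cdh1, Cdh3 and Cdh15, the other type I members, held 3, 62 and 81 UMIs in all kept nuclei and were under the filter.

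Cdh9, a type II cadherin that the study itself uses as a marker of the Calcrl neurons, was highest in that class. It read 315, 323 and 218 CPM in CeC Calcrl in fed replicates 1 to 3 and 320 and 253 CPM in fasted replicates 1 and 2, above every other inhibitory class in 5 of 5 libraries. Since the study chose Cdh9 on these libraries, its class difference of 1.94 ± 0.13 (edgeR adjusted p = 1.7e-18) is no independent evidence. AStr Rarb followed at 216 ± 16.2 CPM and ITC Foxp2 at 185 ± 40.0 CPM (mean ± SD, n = 5), with library values that overlapped. CeL Prkcd read 75.5 to 110 CPM and did not overlap with any of these 3.

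At the low end, Cdh9 read 21.8, 10.5 and 31.7 CPM in CeL Dnah5 in the fed and 15.8 and 15.4 CPM in the fasted libraries. In CeL Sst it read 7.45, 22.7 and 24.3 CPM in the fed and 15.8 and 17.0 CPM in the fasted libraries. CeL Dnah5 and CeL Sst overlapped with each other and lay under all 5 values of CeL Prkcd. Their differences were -2.35 ± 0.26 and -2.45 ± 0.27, and with each gate minimum raised by 1 UMI that of CeL Dnah5 moved to -3.46.

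Cdh12, another type II cadherin and also a marker in the study, was highest of the 8 classes in CeM Dlk1. It read 665, 1196 and 727 CPM in CeM Dlk1 in the fed and 591 and 742 CPM in the fasted libraries, above the other 7 classes in 5 of 5 libraries. The class difference was 2.09 ± 0.16 (edgeR adjusted p = 8.4e-16), which for a marker chosen on these libraries is no independent evidence. CeC Calcrl followed at 434 ± 69.0 CPM and CeL Prkcd at 379 ± 59.8 CPM (n = 5), which overlapped with each other and not with CeM Dlk1, and whose differences were 1.16 ± 0.17 and 0.93 ± 0.18. In CeL Sst Cdh12 read 74.5, 11.4 and 48.6 CPM in the fed and 89.7 and 122 CPM in the fasted libraries.

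Cdh18, the neighbour of Cdh12 on chromosome 15, was graded in another order. In CeC Calcrl it read 2509, 2599 and 2455 CPM in the fed and 2687 and 2176 CPM in the fasted libraries, the highest class in 5 of 5, with a difference of 1.26 ± 0.14. CeL Prkcd read 1282 to 2329 CPM, with a difference of 0.68 ± 0.15. CeL Sst read 317 to 842 CPM, was the lowest class in 4 of 5 libraries and had a difference of -1.29 ± 0.19. Cdh9, Cdh12 and Cdh18 were all called higher in CeC Calcrl and all lower in CeL Sst, while in CeM Dlk1 Cdh12 was called higher, Cdh9 lower (-0.94 ± 0.19) and Cdh18 not called.

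**Figure D2:**
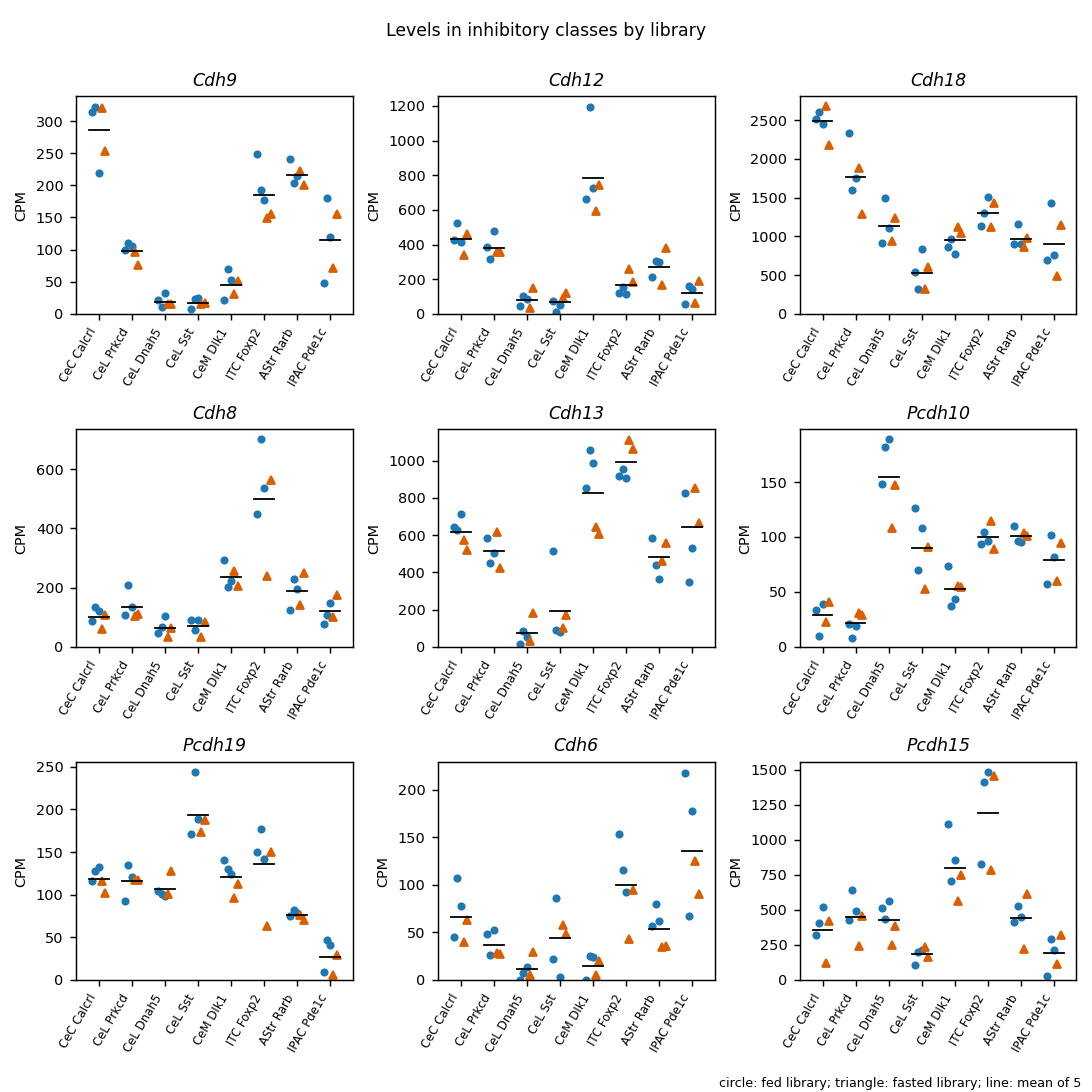
CPM of 9 members (panels) in the 8 inhibitory classes, with 1 point per library (circles fed, triangles fasted) and a line at the mean of 5. Cdh9 and Cdh18 are highest in CeC Calcrl, Cdh12 in CeM Dlk1, Cdh8 and Pcdh15 in ITC Foxp2, Pcdh10 in CeL Dnah5, Pcdh19 in CeL Sst and Cdh6 in IPAC Pde1c.

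Cdh8, a type II cadherin, was highest of the 8 classes in the intercalated one. It read 449, 701 and 536 CPM in ITC Foxp2 in the fed and 238 and 564 CPM in the fasted libraries, and was the highest class in 4 of 5, all but fasted replicate 1. The difference was 2.08 ± 0.12 (edgeR adjusted p = 3.9e-22). In CeL Dnah5 it read 34.3 to 105.3 CPM, with a difference of -1.28 ± 0.20. Cdh11 and Cdh10 had the same highest class, in 5 of 5 libraries each, at 87.9 ± 14.8 and 352 ± 18.8 CPM, with differences of 1.57 ± 0.17 and 0.96 ± 0.11. Both had their lowest mean in CeL Sst, at 11.2 ± 9.16 and 76.8 ± 15.5 CPM (n = 5).

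Cdh6 and Cdh7, both type II cadherins, were highest in IPAC Pde1c and AStr Rarb. Cdh6 read 218, 67.2 and 178 CPM in IPAC Pde1c in the fed and 125 and 90.1 CPM in the fasted libraries, with a difference of 1.69 ± 0.23, and ITC Foxp2, at 42.5 to 153 CPM, overlapped with it. In CeM Dlk1 and CeL Dnah5 Cdh6 stayed between 0 and 29.1 CPM, and CeM Dlk1 had a difference of -1.57 ± 0.33. Cdh7 was highest in AStr Rarb in 5 of 5 libraries, at 110, 141 and 142 CPM in the fed and 109 and 150 CPM in the fasted ones. Its difference was 1.34 ± 0.12 there and 1.13 ± 0.16 in IPAC Pde1c, against -1.27 ± 0.21 in CeL Prkcd.

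Cdh22, a type II cadherin, had a ratio of 4.66 between its highest class mean, in CeM Dlk1, and its lowest, in IPAC Pde1c. It read 42.6 ± 26.2 CPM in IPAC Pde1c, with a difference of -1.12 ± 0.20, and 198 ± 72.9 CPM in CeM Dlk1 (n = 5). In CeL Prkcd the difference was 0.48 ± 0.15, and it was not called without fasted replicate 2 (0.34, edgeR adjusted p = 0.19) or in the 3 fed libraries alone (0.23, adjusted p = 0.52).

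Cdh13, T-cadherin, which is anchored by a lipid and has no cytoplasmic tail, had the most negative difference of a member among the 8 inhibitory classes, apart from Cdh19 in CeL Sst, which rests on 1 UMI there. It read 17.5, 83.8 and 51.9 CPM in CeL Dnah5 in the fed and 29.0 and 181 CPM in the fasted libraries. In ITC Foxp2 it read 919, 953 and 905 CPM in the fed and 1113 and 1060 CPM in the fasted libraries. The groups of values did not overlap, and the difference of CeL Dnah5 was -2.75 ± 0.30 (edgeR adjusted p = 4.5e-11), or -3.53 without fasted replicate 2. CeM Dlk1 was higher by 1.07 ± 0.19, with 604 to 1055 CPM. In CeL Sst 1 library stood apart, fed replicate 1 with 514 CPM against 81.0 to 171 CPM in the other 4.

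Delta protocadherins, the nonclustered protocadherins with conserved tail motifs, differed from each other in their order of classes, and the 7 tested had their highest means in 4 different classes. Pcdh10, which recruits the WAVE complex, read 148, 182 and 189 CPM in CeL Dnah5 in the fed and 108 and 147 CPM in the fasted libraries, the highest class in 4 of 5. In CeL Prkcd it read 21.2, 8.30 and 18.6 CPM in the fed and 30.8 and 29.4 CPM in the fasted libraries. The groups did not overlap, and the differences were 1.38 ± 0.14 and -1.89 ± 0.19 (edgeR adjusted p = 2.7e-12). CeC Calcrl was also low, at 10.2 to 40.6 CPM and -1.30 ± 0.17.

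Pcdh19, whose human counterpart is known for an X-linked epilepsy, was highest in CeL Sst in 5 of 5 libraries. It read 171, 244 and 189 CPM there in the fed and 174 and 188 CPM in the fasted libraries, a difference of 1.07 ± 0.13. IPAC Pde1c was the lowest class in 5 of 5, at 5.97 to 46.3 CPM and -1.76 ± 0.18. In AStr Rarb the difference was -0.45 ± 0.11, and with each gate minimum raised by 1 UMI it was not called (-0.23, edgeR adjusted p = 0.29).

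Pcdh11x, also on the X chromosome, was highest in CeM Dlk1 and AStr Rarb. It read 179, 382 and 372 CPM in CeM Dlk1 in the fed and 242 and 412 CPM in the fasted libraries, and 237 to 367 CPM in AStr Rarb, so that the 2 classes overlapped. Their differences were 1.18 ± 0.20 and 1.26 ± 0.18. CeL Dnah5 was lowest in 5 of 5 libraries at 21.8 to 94.0 CPM, with -2.14 ± 0.32.

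Pcdh7, Pcdh9, Pcdh1 and Pcdh17 spanned ratios of 2.47, 2.17, 1.79 and 1.59 between the highest and the lowest class mean. Pcdh7 was highest of the 8 classes in CeM Dlk1 in 5 of 5 libraries, at 1245 to 1669 CPM, and lowest in CeC Calcrl, with differences of 0.67 ± 0.12 and -0.79 ± 0.13. Pcdh9 had its highest mean in ITC Foxp2, at 3491 CPM, and its lowest in CeL Sst, at 1608 CPM. In CeL Dnah5, next in order, Pcdh9 was higher by 0.38 ± 0.10. That call was lost without fasted replicate 2 (0.31, edgeR adjusted p = 0.078) and in the 3 fed libraries alone (0.38, adjusted p = 0.091). Pcdh1 was higher by 0.45 ± 0.13 in CeL Sst, which fell under the threshold without fed replicate 2 (0.38, adjusted p = 0.090) and with no filter on low counts (0.43, adjusted p = 0.055).

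Pcdh15, a protocadherin of the tip links of hair cells that the study also shows as a class marker, was counted widely in these neurons. In ITC Foxp2 it read 830, 1414 and 1482 CPM in the fed and 781 and 1458 CPM in the fasted libraries, the highest class in 4 of 5 libraries, with a difference of 1.70 ± 0.15 (edgeR adjusted p = 2.4e-14), and its choice as a marker makes this no independent evidence either. CeM Dlk1 followed at 563 to 1114 CPM, overlapping with ITC Foxp2, with 0.98 ± 0.16. CeL Sst read 104 to 237 CPM and -1.38 ± 0.22, and IPAC Pde1c 28.4 to 322 CPM and -1.02 ± 0.20. Cdh23, its partner in the tip link, held 349 UMIs in all inhibitory nuclei and was under the filter.

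The clustered protocadherins had sparse counts and showed no called difference among the inhibitory classes. The 57 genes held 3 to 1318 UMIs each in all kept nuclei, and Pcdhga12 was the 1 that passed the filter. With no filter, 56 were fitted and 0 differed among the classes, where 27.7% of all genes did, at these low counts. All 14 alpha and all 21 gamma genes share an annotated exon with another member, the constant exons at their 3′ ends, so that a read from a 3′ library cannot always be given to 1 of them and single-gene counts are uncertain. The 22 beta genes share no exon. All 3 loci lie on chromosome 18.

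Summed over each locus, the levels overlapped between any 2 of the 8 inhibitory classes, except that the beta sum was 41.8 to 85.2 CPM in IPAC Pde1c and 13.0 to 39.3 CPM in CeL Dnah5. The alpha sum had class means between 22.2 CPM (CeC Calcrl) and 33.4 CPM (ITC Foxp2), the beta sum between 31.1 CPM (CeL Dnah5) and 55.8 CPM (IPAC Pde1c), and the gamma sum between 80.1 CPM (CeL Prkcd) and 111 CPM (CeM Dlk1). In astrocytes the gamma sum read 176, 161 and 200 CPM in the fed and 156 and 152 CPM in the fasted libraries, above every value of the 8 inhibitory classes. The alpha sum was low there, at 6.27, 2.56 and 25.0 CPM in the fed and 0 and 8.11 CPM in the fasted libraries, on 16 UMIs in all. With no filter, Pcdhgc4, a C-type gamma gene, was higher in astrocytes by 1.64 ± 0.28, with 12.5, 40.9 and 33.3 CPM in the fed and 21.7 and 25.9 CPM in the fasted libraries. Pcdhgc3, also C-type, and the sparse Pcdhb3 were called higher there too, where 39.2% of all genes were called. Pcdhga5, with 0 UMIs in oligodendrocytes, was called lower there, where 22.7% were called, and 0 were called in OPC.

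**Figure D3:**
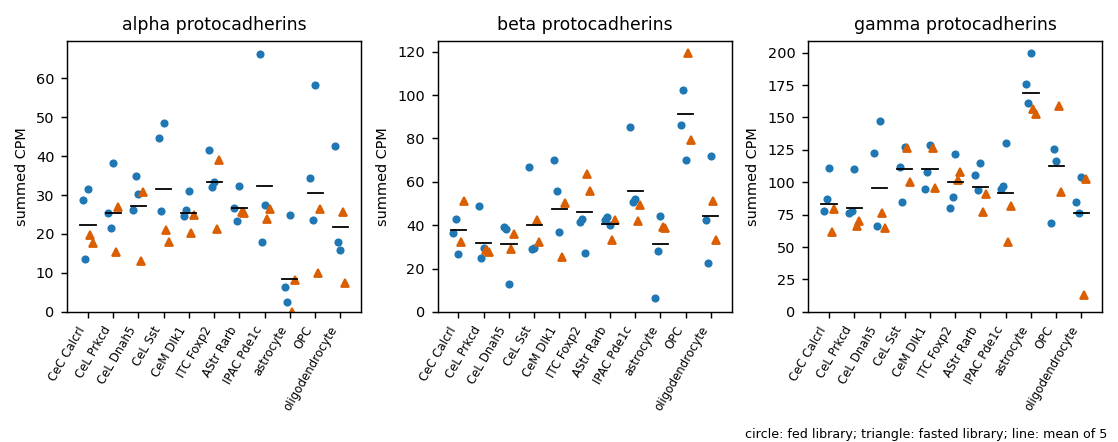
Summed CPM of the alpha, beta and gamma protocadherins (panels) in 11 classes, with 1 point per library (circles fed, triangles fasted) and a line at the mean of 5. The inhibitory classes overlap apart from IPAC Pde1c and CeL Dnah5 in the beta panel, and the gamma sum in astrocytes lies at 152 to 200 CPM.

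In glia 2 type II members of chromosome 1, Cdh19 and Cdh20, were far above their neuronal levels. Against the mean of the inhibitory classes, 10 members were higher and 11 lower in astrocytes (32.7% and 29.7% of all genes, 62.4% together), 6 higher and 8 lower in oligodendrocytes (20.3% and 20.1%, 40.5% together), and 13 higher and 8 lower in OPC (18.3% and 21%, 39.3% together). Cdh4, Cdh7, Cdh8, Cdh18, Cdh22, Pcdh1 and Pcdh19 were lower in each of the 3 glial classes, and Cdh10, Cdh11, Cdh19, Cdh20, Pcdh9 and Pcdh11x were higher in each.

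Cdh19 read 511, 687 and 192 CPM in oligodendrocytes in the fed and 370 and 583 CPM in the fasted libraries. In astrocytes it read 244, 427 and 155 CPM in the fed and 265 and 566 CPM in the fasted libraries, and in OPC 0, 55.0 and 46.6 CPM in the fed and 109 and 59.4 CPM in the fasted ones. Oligodendrocytes and astrocytes overlapped, and both lay above OPC. The differences from the inhibitory classes were 7.45 ± 0.21, 7.01 ± 0.18 and 4.42 ± 0.50, and 8.48, 8.06 and 5.48 when neurons with 5 or more UMIs of the glial gate genes were left out. Without fasted replicate 2 they were 8.33, 7.70 and 5.43.

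In neurons Cdh19 was near the limit of counting. It held 45 UMIs in ITC Foxp2, with a called difference of 1.35 ± 0.39, and 1 UMI in 5 libraries in CeL Sst, under a floor of 3 counts, so that no fold is given there. Its call in CeL Sst was lost in each fit without 1 library, and in the fit without neurons that carry glial RNA. The summed CPM of the 4 astrocyte gate genes was 51.5 in ITC Foxp2 and 25.5 in CeL Sst, and that of the 5 oligodendrocyte gate genes 183 and 180. The part of RNA from glia in these neuronal values of Cdh19 was not tested beyond leaving out those neurons.

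Cdh20 was high in all 3 glial classes and overlapped between them. It read 706, 920 and 606 CPM in OPC, 539, 729 and 608 CPM in astrocytes and 468, 1077 and 536 CPM in oligodendrocytes in fed replicates 1, 2 and 3. In fasted replicates 1 and 2 it read 736 and 766 CPM in OPC, 695 and 817 CPM in astrocytes and 370 and 272 CPM in oligodendrocytes. The differences from the inhibitory classes were 4.77 ± 0.21, 4.62 ± 0.15 and 4.24 ± 0.20. With classes of at least 5 nuclei admitted, which adds neurons with Cdh20 to the mean, they were 4.16, 4.04 and 3.66.

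OPC were set apart by Pcdh15. It read 6029, 6023 and 4885 CPM in OPC in the fed and 5490 and 4755 CPM in the fasted libraries, against 268 to 456 CPM in oligodendrocytes and 69.5 to 377 CPM in astrocytes. None of these values overlapped with OPC, and the difference from the inhibitory classes was 3.74 ± 0.14 (edgeR adjusted p = 4.8e-32). Cdh22 and Cdh8 were the members most reduced in OPC, by -2.10 ± 0.43 and -2.06 ± 0.39.

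Oligodendrocytes had the highest level of Pcdh9, at 13770, 20570 and 10680 CPM in the fed and 12610 and 14690 CPM in the fasted libraries, with a difference of 2.35 ± 0.09. Pcdh11x was higher in oligodendrocytes by 2.62 ± 0.20, but 1 library carried much of it. It read 355, 741 and 408 CPM in the fed libraries and 549 CPM in fasted replicate 1, and 2854 CPM in fasted replicate 2, without which the difference was 1.87. In OPC Pcdh11x read 1061 to 2115 CPM and 3.35 ± 0.20. Pcdh1 and Cdh12 were the members most reduced in oligodendrocytes, by -1.82 ± 0.30 and -1.45 ± 0.34.

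Astrocytes had Cdh11 as the third largest increase, at 125 to 207 CPM and 2.29 ± 0.19, and Cdh22 and Cdh18 as the largest decreases, -2.24 ± 0.28 and -1.95 ± 0.20. Cdh2 read 488 to 821 CPM in astrocytes, above the 8 inhibitory classes in 5 of 5 libraries, with 1.42 ± 0.10.

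**Figure D4:**
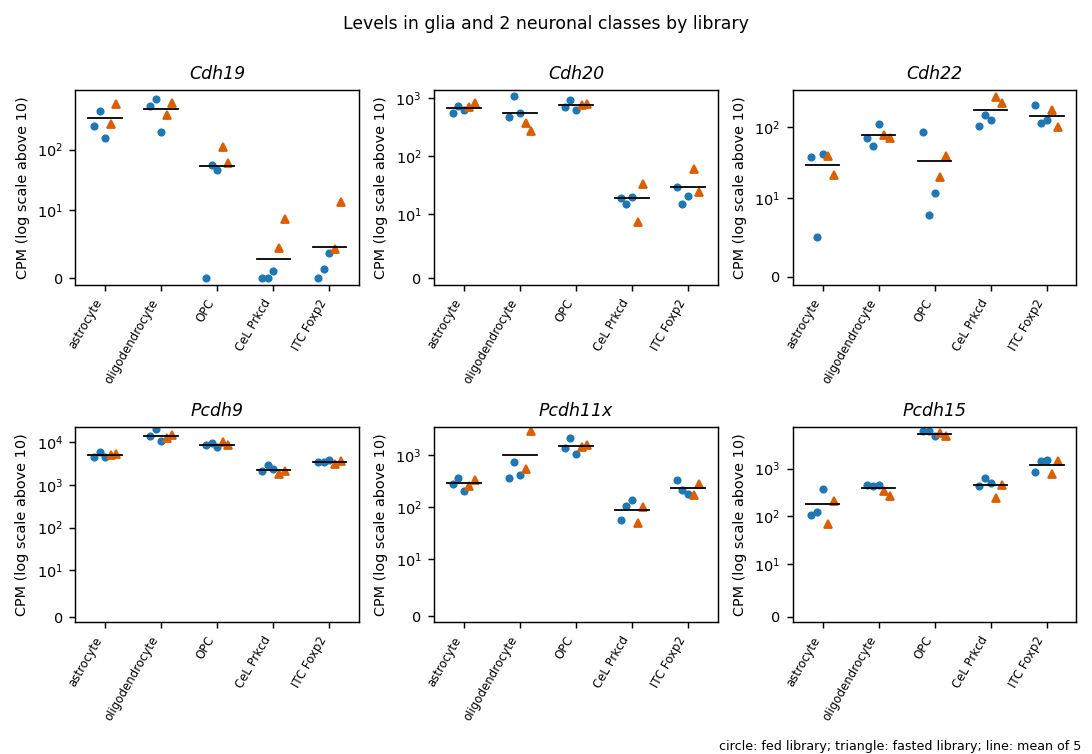
CPM (log axis above 10) of 6 members in the 3 glial classes and in CeL Prkcd and ITC Foxp2, with 1 point per library (circles fed, triangles fasted) and a line at the mean of 5. Cdh19 lies at 155 to 687 CPM in astrocytes and oligodendrocytes, Pcdh15 lies at 4755 to 6029 CPM in OPC, and fasted replicate 2 stands above the other oligodendrocyte values of Pcdh11x.

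Smaller classes, with at least 5 nuclei in every library, were added after the data were seen and gave 24 tested members. Excitatory neurons had 8 members higher and 1 lower (21.8% of all genes called). Cdh9 read 592, 800 and 468 CPM there in the fed and 401 and 369 CPM in the fasted libraries, above all 8 inhibitory classes in 5 of 5, with a difference of 2.94 ± 0.14. Cdh11 (3.01 ± 0.17) and Cdh8 (2.57 ± 0.14) moved with it, and Cdh18 was lower (-1.41 ± 0.22).

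Neurons gated by Nkx2-1, which the study places in the basolateral amygdala, had 10 members higher and 4 lower (28.4%). Pcdh15 read 1929 to 3935 CPM there, a difference of 2.64 ± 0.17, and Cdh20 128 to 286 CPM, a difference of 2.59 ± 0.21. CeM Vdr had 10 higher and 6 lower (10.3%), with Cdh12 at 534 to 958 CPM and 1.63 ± 0.20, Cdh10 at 443 to 599 CPM and 1.35 ± 0.15, and Cdh13 at 49.2 to 138 CPM and -2.26 ± 0.34. Cdh12 overlapped there with CeM Dlk1, and Pcdh7, at 1924 to 3479 CPM and 1.19 ± 0.14, lay above all 5 values of CeM Dlk1. CeM Tac1 had 12 higher and 0 lower (7.99%), among them Pcdh15 (1.53 ± 0.20) and Cdh8 (1.21 ± 0.19). Its Cdh23 call of 3.55 rests on 10 UMIs, all in fed replicate 3.

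Microglia had 1 member higher and 21 lower (61.5%). The 1 was Cdh23, at 177, 370 and 223 CPM in the fed and 140 and 170 CPM in the fasted libraries, a difference of 6.99 ± 0.49. It held 70 UMIs in 74 microglia and 0 UMIs in CeL Sst.

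Members under the filter of the main comparison were 13 nonclustered genes, Cdh1, Cdh3, Cdh5, Cdh15, Cdh16, Cdh17, Cdh23, Cdh24, Cdh26, Pcdh8, Pcdh12, Pcdh18 and Pcdh20, and 56 clustered ones. In all, 6 members held under 10 UMIs in all kept nuclei, and Pcdh12 held 0. With no filter, Cdh3, Cdh23, Cdh24, Pcdh8, Pcdh18 and Pcdh20 were called among the inhibitory classes in addition to the 22.

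Among genes that act with cadherins, the giant protocadherin Dchs2, which binds the Fat cadherins, had the widest differences. It was higher in CeL Prkcd by 2.28 ± 0.14 and in CeC Calcrl by 1.69 ± 0.14, and lower in CeL Sst by -3.25 ± 0.29. Of the giant and flamingo cadherins, 4 of 6 tested genes differed among the inhibitory classes. Catenins, the cytoplasmic partners, had 6 of 8, with the extremes Ctnna1 in ITC Foxp2 (0.84 ± 0.16) and Ctnnal1 in CeC Calcrl (-0.95 ± 0.13).

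The WAVE complex, the actin regulator that delta protocadherins contact, had 5 of 9, from Wasf3 in CeL Dnah5 (0.92 ± 0.10) to Wasf1 in CeM Dlk1 (-0.92 ± 0.14). Calsyntenins and cadherin-related genes had 2 of 3, and the extremes were both Clstn2, in CeL Dnah5 (1.26 ± 0.18) and CeL Prkcd (-2.18 ± 0.25). The proteases of cadherin shedding had 3 of 4, from Adam10 in ITC Foxp2 (0.52 ± 0.12) to Adam17 in IPAC Pde1c (-0.68 ± 0.20). Regulators of the clustered loci had 2 of 9, from Wiz in CeL Prkcd (0.44 ± 0.16) to Smc1a in IPAC Pde1c (-0.52 ± 0.18). Over all genes, 46.4% differed among the classes.

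No member was called by fasting at an adjusted p of 0.05 in any of the 11 classes or in all inhibitory neurons together (edgeR quasi-likelihood test, 3 fed against 2 fasted libraries). In simulated counts this test recovered 32% of 2-fold changes in CeL Prkcd and 70% in all inhibitory neurons, so changes of that size can be missed. Of all genes, 0.251% were called in ITC Foxp2, 0.0704% in CeC Calcrl, 0.32% in CeL Prkcd (0.253% higher and 0.0666% lower), 0.378% in CeM Dlk1, 0.102% in CeL Dnah5 and 0.532% in OPC, and 0% in the other 5 classes and in all inhibitory neurons. Between 15 members (OPC) and 80 members (all inhibitory neurons) could be tested. The sum over all inhibitory neurons, gated or not, mixes the classes, so a shift in their shares can move it. ITC Foxp2, for example, gave 42, 95 and 105 nuclei in the fed and 28 and 151 in the fasted libraries. The part of such shifts in the differences of this sum was not tested. At an unadjusted p under 0.05 there were 5 of 16 tested members in CeL Dnah5, 4 of 36 in ITC Foxp2 and 4 of 45 in AStr Rarb. There were 3 of 22 each in CeC Calcrl and CeM Dlk1, 3 of 21 in CeL Prkcd and 3 of 17 in oligodendrocytes. IPAC Pde1c had 1 of 22, CeL Sst 1 of 19, OPC 1 of 15, astrocytes 0 of 22 and all inhibitory neurons 2 of 80. The share of all genes at this unadjusted p is not given, so these counts are not set against it.

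Fed and fasted libraries of the same number share a preparation batch. With it as a block there were 9 calls over the classes, of 8 members, where 0.187 to 2.68% of all genes were called, and 3 in all inhibitory neurons (3.81%). Fed replicate 3 was taken, by its number, as the fed library with a batch of its own, and drops out of that fit, which leaves 2 pairs and 1 residual degree of freedom per gene. The mitochondrial share was higher in both fasted libraries than in the fed libraries in each of the 11 classes but CeL Dnah5 and CeL Sst, and it cannot be told apart from fasting. DESeq2 called 0 members over the classes (0 to 0.507% of all genes) and 1 in all inhibitory neurons (0.77%). Without fasted replicate 2, 1 fasted library remained, so only effect sizes of the unblocked edgeR fit are given. Pcdh15 then differed by -1.04 in AStr Rarb, -1.81 in CeC Calcrl and -1.11 in CeL Prkcd. Pcdh7 differed by -1.21 in CeC Calcrl and Cdh8 by -1.32 in ITC Foxp2.

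Cdh22 came nearest to the threshold. In CeL Prkcd it read 104, 150 and 126 CPM in the fed and 269 and 219 CPM in the fasted libraries. Both fasted values lay above the 3 fed ones, and 22.6% of the genes with 50 UMIs in that class did not overlap in 1 direction or the other. The fitted difference was 0.91 ± 0.21 (edgeR adjusted p = 0.099), and 0.87 ± 0.20 with the block (adjusted p = 0.0011, 2.08% of all genes called). Unblocked fits called it by the likelihood ratio test (0.91, 0.973% of all genes) and with no filter on low counts (0.90, 0.741%). It was not called by DESeq2, with RLE size factors, with raised gate minimums or with at least 1500 genes per nucleus. Nor was it called with neurons that carry glial RNA left out or without any 1 fed library.

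In CeL Dnah5 Cdh22 read 118, 59.4 and 59.1 CPM in the fed and 185 and 115 CPM in the fasted libraries, which overlapped, with 0.96 ± 0.33 (edgeR adjusted p = 0.39). In CeM Dlk1 it read 151, 119 and 205 CPM in the fed and 311 and 207 CPM in the fasted libraries, with 0.66 ± 0.24 (adjusted p = 0.49), and 0.86 ± 0.19 with the block (adjusted p = 0.0011, 1.27% of all genes). The fitted difference was above 0 in 7 of 9 classes, which share the same libraries, and in all inhibitory neurons it was called with the block only (0.35 ± 0.09, 3.81% of all genes).

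Cdh6 in AStr Rarb was not called in the unblocked quasi-likelihood fit. The unblocked likelihood ratio test called it (-0.91, 0.392% of all genes), as did the unblocked fit with no filter on low counts (-0.91, 0.659%). Cdh6 read 56.1, 79.5 and 61.4 CPM in the fed and 34.8 and 35.9 CPM in the fasted libraries, without overlap. The difference was -0.91 ± 0.20 (edgeR adjusted p = 0.31), and -1.01 ± 0.17 with the block (adjusted p = 1.2e-06, 1.49% of all genes). In all inhibitory neurons it read 47.4, 59.3 and 52.9 CPM in the fed and 28.1 and 43.3 CPM in the fasted libraries, a difference of -0.60 ± 0.18 (adjusted p = 0.55) that the block alone called (-0.62 ± 0.10). The part of shifts in class shares in this value was not tested.

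Cdh13 in CeM Dlk1, not called without the block, read 854, 1055 and 987 CPM in the fed and 641 and 604 CPM in the fasted libraries. The difference was -0.66 ± 0.17 (edgeR adjusted p = 0.14), -0.66 ± 0.15 with the block (adjusted p = 0.0011), and -0.48 when neurons with glial RNA were left out (adjusted p = 0.69). In OPC it read 913, 1116 and 1329 CPM in the fed and 696 and 713 CPM in the fasted libraries, with -0.66 ± 0.25 (adjusted p = 0.46), not called with the block.

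Cdh12 in CeL Sst, whose values by library are given above, differed by 1.66 ± 0.44 between fasted and fed (edgeR adjusted p = 1.0). The difference was 2.11 ± 0.41 with the block (adjusted p = 5.5e-04, 0.187% of all genes) and 0.98 without fed replicate 2. It was also called without the block when no filter was set (1.65, 0.0641% of all genes). Cdh19 in all inhibitory neurons read 2.30, 2.37 and 2.19 CPM in the fed and 3.89 and 9.65 CPM in the fasted libraries. Its difference was 1.58 ± 0.34 (edgeR adjusted p = 0.24), 1.55 ± 0.28 with the block (adjusted p = 9.1e-06) and 1.55 by DESeq2 (adjusted p = 0.027). The likelihood ratio test (1.56, 1.18% of all genes) and the fit with no filter (1.58, 0.712%) called it too. It was 1.31 without neurons that carry glial RNA, and 0.79 without fasted replicate 2. In the same pools the astrocyte gate genes summed to 41.0, 23.0 and 54.5 CPM in the fed and 80.0 and 73.7 CPM in the fasted libraries, and their part in the Cdh19 difference was not tested further.

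Pcdh11x in oligodendrocytes differed by 1.78 ± 0.57 (edgeR adjusted p = 0.57). It was called with no filter (1.74, 0.176% of all genes) and with the block (1.48 ± 0.31, adjusted p = 4.1e-04, 2.68%). The difference came through fasted replicate 2, without which it was 0.05. Cdh20 in oligodendrocytes read 468, 1077 and 536 CPM in the fed and 370 and 272 CPM in the fasted libraries, a difference of -1.16 ± 0.46 (adjusted p = 0.89) that the block called (-1.35 ± 0.32). The block also called Cdh8 in ITC Foxp2 (-0.59 ± 0.16, 1.27% of all genes) and Pcdh15 in CeL Prkcd (-0.65 ± 0.17).

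In the remaining classes the members of smallest p were Cdh4 in IPAC Pde1c (0.80 ± 0.31, adjusted p = 1.0 by edgeR), Cdh7 in ITC Foxp2 (0.73 ± 0.24, adjusted p = 0.51), Pcdh7 in CeC Calcrl (-0.68 ± 0.23, adjusted p = 0.61) and Cdh4 in astrocytes (-0.62 ± 0.39, adjusted p = 0.99). Pcdh15 had fitted differences below 0 in 9 of 11 classes and Cdh9 in 8 of 8, between -0.46 and -0.01 for Cdh9. The classes share the same libraries, so these directions are not independent of each other. The median difference of the tested members ran from -0.23 in CeC Calcrl to 0.20 in CeL Dnah5, with medians of all genes from -0.01 to 0.01. None of the genes in the 6 related lists was called in any class. The study, with a likelihood ratio test on its own clusters, reports the WAVE gene Cyfip1 as raised in CeL NTS/Tac2.

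**Figure D5:**
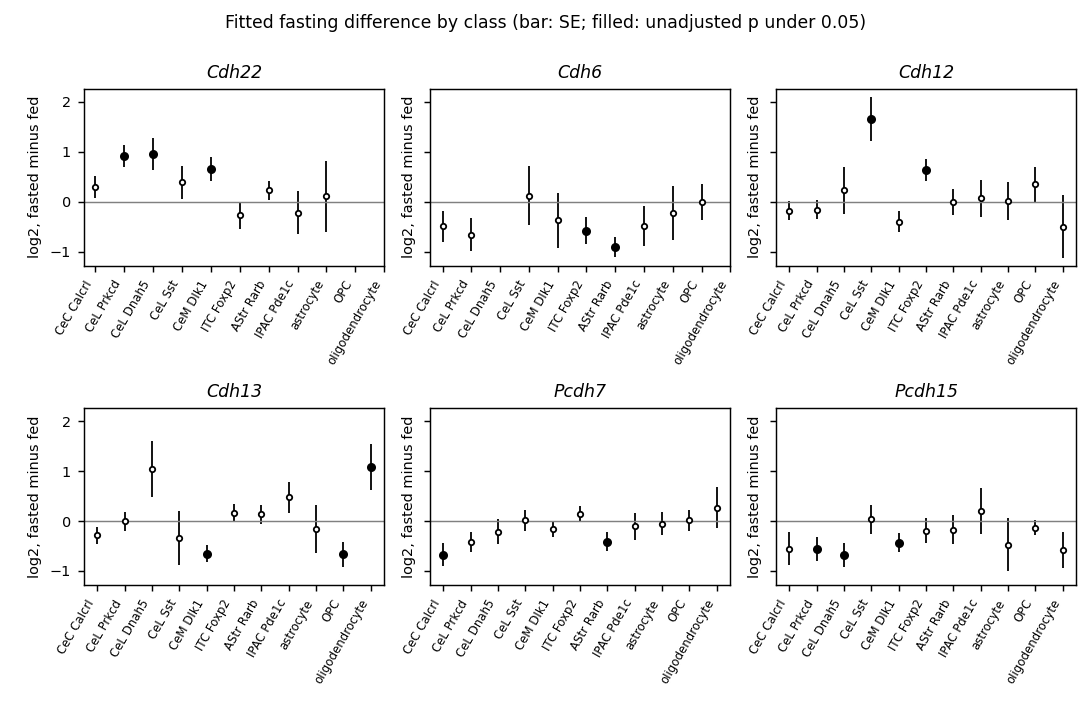
Fitted log2 difference, fasted minus fed, of 6 members (panels) in the 11 classes, with bars of 1 standard error, filled where the unadjusted p was under 0.05. Cdh22 lies at 0.91 in CeL Prkcd, Cdh6 at -0.91 in AStr Rarb and Cdh12 at 1.66 in CeL Sst, and none passed the adjusted threshold.

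The study counted the genes changed by fasting in each of its clusters with a pseudo-bulk edgeR likelihood ratio test. It reported the most in CeL NTS/Tac2, followed by CeL Prkcd. CeL Dnah5, gated here by Dnah5 and Vipr2, stands in for the former, and Nts and Tac2 were highest in it of 11 classes. The responses of CeL Dnah5 and CeL Prkcd were set against each other in 1 quasi-likelihood model, so test and classes differ from the study's. Of 20 tested members 0 differed, as did 0% of all genes. An unadjusted p under 0.05 was reached by 5 of the 20, and the share of all genes at that p is not given. Pcdh11x came nearest, with a log2 response 1.81 higher in CeL Dnah5 (edgeR adjusted p = 0.18). Under the alternatives the difference was 1.30 to 1.99, with adjusted p from 0.071 to 0.87, and the lowest value was that without fasted replicate 2. It read 21.8, 31.4 and 23.1 CPM in CeL Dnah5 in the fed and 29.0 and 94.0 CPM in the fasted libraries. Cyfip1, which is not a member, had a log2 response 0.74 ± 0.23 higher in CeL Dnah5 than in CeL Prkcd (edgeR adjusted p = 0.43), not called.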

How the data were processed

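The authors deposited raw UMI counts per gene and nucleus for 5 single-nucleus libraries; their methods give Cell Ranger on GRCm39 with introns counted, while the submitters' processing notes name mm10 and Cell Ranger 2.1.1. Intron counting raises long genes, to which many cadherins belong. Nuclei with 500 to 8000 genes and under 0.8% mitochondrial UMIs were kept, gated by raw marker UMIs, and summed per class and library, in classes of at least 10 nuclei in every library. Class sums held 58053 to 4594073 UMIs. Sums were tested with edgeR 4.0.16 (R 4.3.3, limma 3.58.1; filterByExpr, TMM, quasi-likelihood F tests, Benjamini-Hochberg over all genes of a contrast), with the library as a block between classes and no block for fasting. A standard error is the absolute log2 difference over the square root of F. The class fit and the unblocked fasting fit were tested on simulated counts, and the gates and alternatives were not. Of 2-fold changes the fasting fit recovered 32% in CeL Prkcd, 41% in CeL Sst, 62% in AStr Rarb, 35% in OPC and 70% in all inhibitory neurons. Of its calls 11.5%, 3.73%, 6.67%, 3.28% and 13.1% were false, in the same order. The class fit recovered 90% in CeC Calcrl and 78% in CeL Sst, with 5.15% and 4.95% of calls false. Tables were made with Python 3.11.15 (numpy 2.4.6, pandas 2.3.3, scipy 1.17.1).

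Fed and fasted replicates of 1 number were prepared together, per a legend of the study, whose remaining fed library was taken to be fed replicate 3. Deviations of such pairs from their group means correlated at 0.352 and 0.478 in all inhibitory neurons and at -0.0374 to 0.398 within classes. Alternatives were DESeq2 1.42.0, no filter, RLE size factors, a likelihood ratio test, that block, gate minimums raised by 1, at least 1500 genes per nucleus, neurons with glial RNA left out, each library left out, the fed libraries alone, and classes of 5 nuclei, the last chosen after seeing the data.

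Named were, per inhibitory class and per glial class, the 3 members with the largest positive and the 2 with the largest negative called difference, for fasting the called members or else that of smallest p, the study's markers Cdh9, Cdh12 and Pcdh15, and the extremes of each list of related genes. Other members are named where they share a pattern described. The members and lists were chosen with earlier results of these data known.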

Additional observations from a re-analysis of the deposited data

Results flagged for a closer look

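Pairs of classes were sought only for members named for fasting, starting from the class where each was named. In 4 such pairs the fasted libraries all lay above the fed ones in 1 class and all below in the other. None of these differences between classes was tested. Outside this limit, Pcdh10 also lay wholly above in 1 class and wholly below in 1, and Cdh13 lay wholly below in 3 classes in all. Cdh13 had a log2 difference, fasted minus fed, of -0.66 in CeM Dlk1 and of -0.66 in OPC, against 0.17 in ITC Foxp2. Cdh7 had 0.73 in ITC Foxp2 and -0.51 in CeL Sst, and Pcdh7 -0.68 in CeC Calcrl and 0.15 in ITC Foxp2. No fasting difference among these passed the adjusted threshold in the unblocked edgeR fit, and such separation of 3 from 2 libraries occurred in 15.2 to 22.8% of the genes with at least 50 UMIs in a class.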

How the results depend on the processing

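The 22 members called among the inhibitory classes, the 94 calls by class and the 56 calls in glia stayed within 1.5 times these counts under every alternative run. The 0 fasting calls did not. Over the classes there were 4 with no filter on low counts (0.0641 to 1.06% of all genes called per class), 2 with the likelihood ratio test (0.0511 to 1.35%) and 9 with the replicate block of the preparation batch (0.187 to 2.68%), against 0 to 0.532% of all genes in the fit as reported. In all inhibitory neurons there was 1 with DESeq2 (0.77%), 1 with no filter (0.712%), 1 with the likelihood ratio test (1.18%) and 3 with the block (3.81%), against 0%. With 1 library left out the count over the classes ranged from 0 to 5. The upper end came without fasted replicate 2. Without either fasted library 1 fasted library remained, so those counts are not read as calls. Effect sizes without fasted replicate 2 are given above (Cdh8, Pcdh7 and Pcdh15). Without fasted replicate 1, Pcdh11x differed by 1.86 and Cdh13 by 1.74 in CeL Dnah5. Without fed replicate 2 there was 1 call, Cdh12 in OPC (1.81, 0 to 0.829% of all genes called per class). The cause of these changes in the count was not tested, and the block leaves 1 residual degree of freedom per gene. Each single value named was compared under each alternative that gave it, so 1 value is counted several times. Of these comparisons 761 kept their side of the threshold and direction, 18 lost a call, 16 gained one and 0 reversed. Raised gate minimums and 1500 genes per nucleus left fewer classes with 10 nuclei, so values of the missing classes were not recomputed. Leaving out neurons with 5 or more UMIs of the glial gate genes is a cut on raw counts, which more of the deeper nuclei meet. It kept 1256 of 1338 inhibitory nuclei in fasted replicate 1 and 977 of 1435 in the deeper fasted replicate 2. Few nuclei limit the precision, as in OPC with 12 to 23 and CeL Sst with 13 to 53 per library.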
